A study of Mus musculus with 9 samples.

Results

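Messenger RNA of 9 core macrophage identity genes was described in the periprostatic adipose tissue of male C57BL/6J mice. The genes are Adgre1, Cd68, Csf1r, Csf1, Mpeg1, Lyz2, Aif1, Cd14 and Spi1, and all 9 were found among the 22180 genes measured. Each was read from the probe set that carries its symbol and no other, and none of the 9 had a competing probe set. The members were chosen as known macrophage genes, with earlier results of these data in view. Csf1 is the gene of a ligand, and the cells that its RNA came from were not determined.

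The high fat group was 5 mice whose chow took 60 percent of its calories from fat, and the low fat group was 4 mice on chow with 10 percent. Both diets began at 6 weeks of age and lasted 12 weeks, and tissue was taken at 18 weeks. Each mouse has 1 Affymetrix Mouse Gene 2.0 ST array of whole tissue, so no cell type was sorted, and all mice are male and of 1 strain. Values are log2 expression per probe set, and differences are high fat minus low fat, so a difference of 1 is a doubling.

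Macrophages are phagocytes of every tissue and live among the adipocytes of fat, where they clear dying cells and take up lipid. Their growth and survival depend on the receptor encoded by Csf1r, which binds the cytokines encoded by Csf1 and Il34. The transcription factor PU.1, encoded by Spi1, sets up the gene programme of the lineage, and obesity in mice is known to increase macrophage number in adipose tissue. In whole tissue, more macrophages and more RNA per macrophage cannot be told apart.

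Of the 9 genes, 7 were higher in high fat diet by limma at an adjusted p below 0.05, and 0 were lower. At an unadjusted limma p below 0.05 the counts were 9 and 0, beside 3928 and 3326 of all 22180 genes. The background was also high after adjustment, since 12.4% of all genes were called higher and 9.13% lower. These shares stand beside the list counts given further on. The median log2 difference of the 9 genes was 0.83, beside -0.0011 for all genes tested. Cd68 rose 3.66-fold, Mpeg1 2.74-fold, Adgre1 2.25-fold and Spi1 2.20-fold. These 4 were called with a log2 difference of at least 1, as were 1.28% of all genes. Csf1r rose 1.78-fold, Cd14 1.53-fold and Lyz2 1.27-fold, while Aif1 and Csf1 did not pass. In 6 of the 9 every high fat mouse lay above every low fat mouse, as in 11.6% of all genes.

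**Figure D1:**
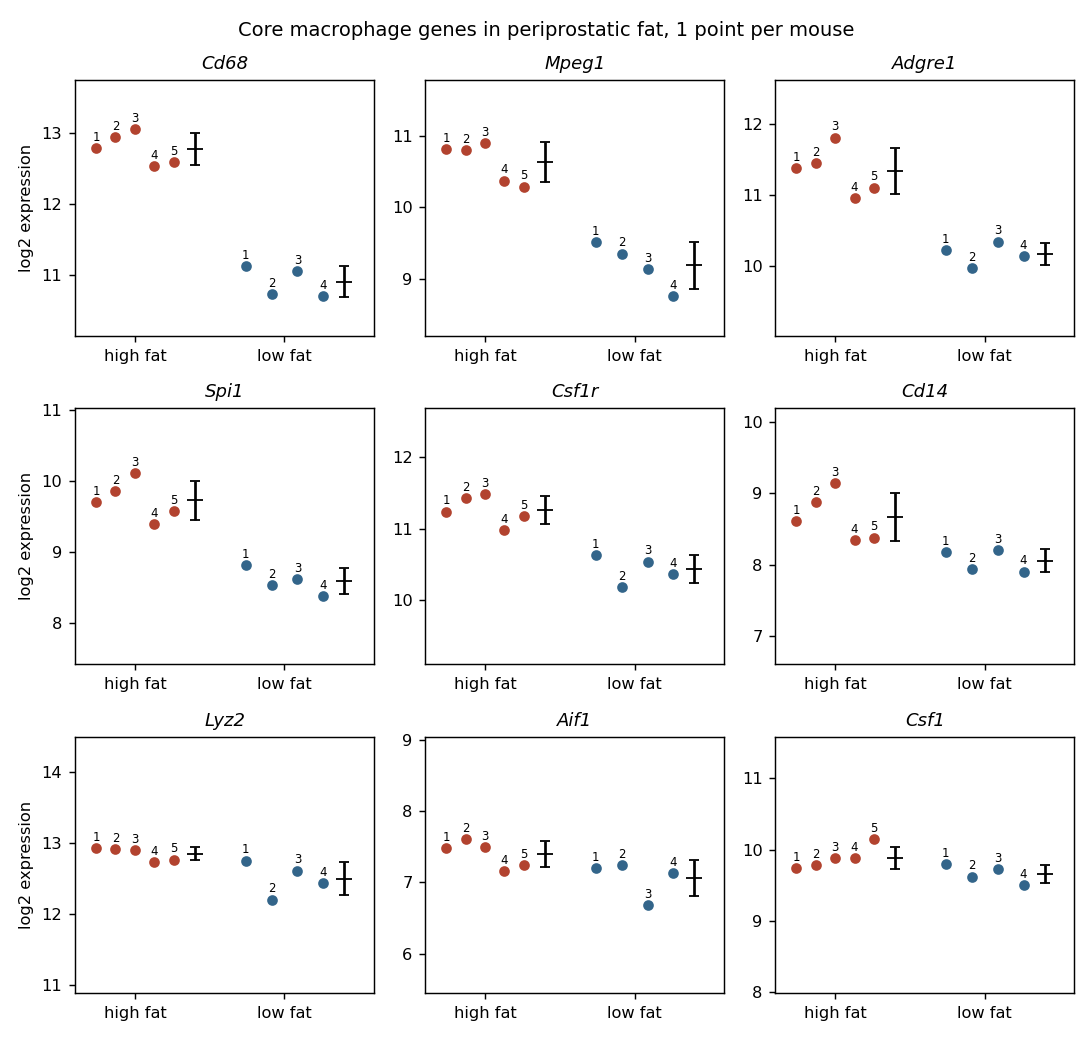
Log2 expression (vertical axis, a window of the same height in each panel) of the 9 genes in high fat mice (red, n = 5) and low fat mice (blue, n = 4). Digits are mouse numbers, and bars show the mean and SD. The diets are apart in Cd68, Mpeg1, Adgre1, Spi1, Csf1r and Cd14, and overlap in Lyz2, Aif1 and Csf1.

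Some arrays stood apart. High fat mice 1 and 2 had wider value distributions (SD over genes 1.90 in each) than the other 7 arrays (1.86 to 1.88). The skeletal muscle list averaged 8.42 in high fat mouse 1 and between 6.12 and 6.23 in the 4 remaining mice of that diet, and the smooth muscle list averaged 10.4 in low fat mouse 2 and between 8.29 and 8.34 in the remaining low fat mice. Low fat mouse 4 also stood apart on the skeletal muscle list, at 7.07, with the remaining low fat mice between 6.08 and 6.25, and all 7 called genes were below their low fat mean in this mouse. Without high fat mice 1 and 2 together, 5 of the 9 genes were called higher (7.74% of all genes), the calls lost being Cd14 and Lyz2. With both muscle averages as covariates 7 were called. The adipocyte genes Adipoq (11.16 in high fat mice and 11.52 in low fat mice) and Fabp4 (13.79 in high fat mice and 13.89 in low fat mice) were far above the median of all genes, between 6.91 and 6.98, as an adipose label implies. The prostate gene Pbsn averaged 4.67 in high fat mice and 4.66 in low fat mice, near the lowest value of the table (4.41). It was the dimmest of 9 prostate and seminal vesicle markers. Sbp, the brightest of them, averaged 6.26 in high fat mice and 6.56 in low fat mice.

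The receptor of the lineage rose, 1 ligand fell and the other did not pass. Csf1r encodes the tyrosine kinase receptor for colony stimulating factor 1. Its log2 values were 11.24, 11.43, 11.48, 10.98 and 11.18 in high fat mice, against 10.63, 10.18, 10.53 and 10.37 in low fat mice. The groups were separated by 0.35, and the difference was 0.83 ± 0.12 (SE), with a limma adjusted p of 0.000833. Csf1, which encodes the ligand, had 9.74, 9.78, 9.88, 9.88 and 10.15 in high fat mice, against 9.80, 9.62, 9.72 and 9.51 in low fat mice. The groups overlapped, high fat mouse 5 was the highest of all 9, and the difference of 0.23 ± 0.09 (SE, 95% interval 0.03 to 0.42) did not pass (limma adjusted p = 0.100). Relative to Csf1 in the same mouse, Csf1r was higher in high fat mice by 0.61 (adjusted p = 0.0238, exact permutation test).

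Il34 encodes the other ligand of the receptor. It had 7.84, 7.68, 7.62, 7.88 and 7.53 in high fat mice, against 7.86, 7.96, 8.27 and 8.09 in low fat mice. Only high fat mouse 4 reached into the low fat range. Il34 fell, with a difference of -0.33 ± 0.10 (SE, limma adjusted p = 0.0340), a call that was lost without high fat mouse 2, 3 or 5 (differences -0.32, -0.31 and -0.29) and without low fat mouse 3 or 4 (-0.26 and -0.32). It was also lost without high fat mice 1 and 2 together (-0.37, limma adjusted p = 0.0816). Within mice, Csf1r minus Il34 was greater in high fat mice by 1.17 and Csf1 minus Il34 by 0.56. Over 7 such pairs chosen after their values were seen, the exact permutation test gave an adjusted p of 0.0556 for each, above the threshold.

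Of 16 measured genes among 18 listed for colony stimulating factor receptors and signalling, 8 were higher and 1, Il34, was lower, with a median difference of 0.34. Tyrobp, the DAP12 adaptor of myeloid receptors, rose 2.75-fold, at 11.96 (SD 0.25, n = 5) in the high fat group and 10.50 (SD 0.14, n = 4) in the low fat group. Csf2ra, the alpha chain of the granulocyte-macrophage factor receptor, rose 1.78-fold, and Csf1r minus Csf2ra differed between diets by -0.0023. Csf2rb2 rose 1.78-fold, whereas Csf2rb differed by 0.08 and did not pass (limma adjusted p = 0.469). These genes are near-identical copies whose probes may share signal, so their values are uncertain. Inpp5d, a lipid phosphatase that limits receptor signalling, rose 1.73-fold.

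**Figure D2:**
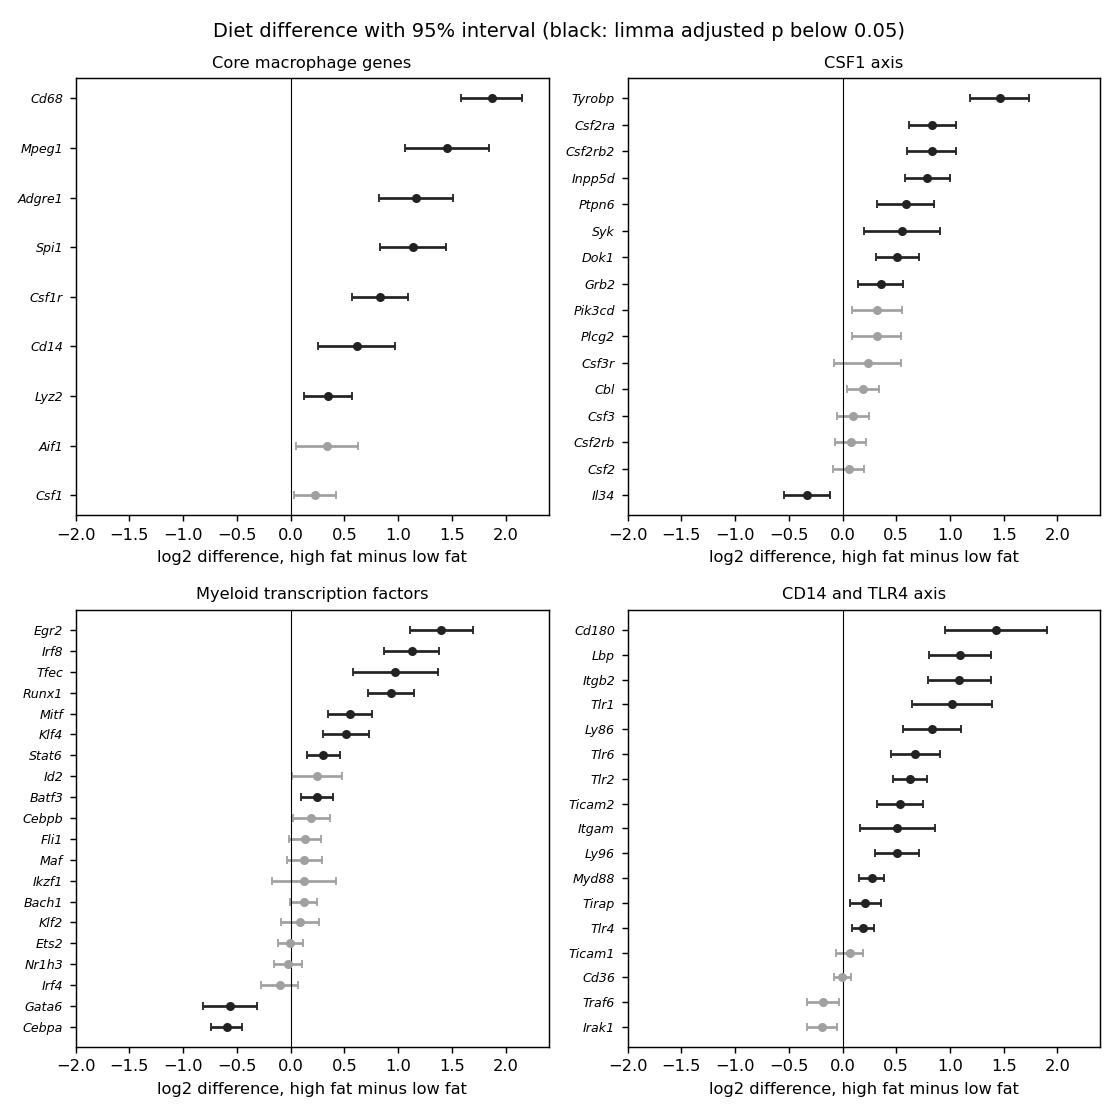
Log2 difference, high fat minus low fat (horizontal axis), with its 95% interval, for the 9 macrophage genes and for 3 lists of related genes. Black points passed limma at an adjusted p below 0.05 and grey points did not. Csf1 and Aif1 have the smallest differences of the 9, and Il34 lies left of 0.

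Spi1, the gene of PU.1, had 9.70, 9.86, 10.11, 9.39 and 9.58 in high fat mice, against 8.81, 8.54, 8.62 and 8.38 in low fat mice. The lowest high fat mouse was above the highest low fat mouse by 0.58. The difference was 1.14 ± 0.14 (SE), with a 95% interval of 0.83 to 1.45 and a limma adjusted p of 0.000381. PU.1 acts with partners in macrophages, among them the factor encoded by Irf8. Irf8 had 9.54, 9.50, 9.38, 9.27 and 9.16 in high fat mice, against 8.48, 8.34, 8.22 and 7.93 in low fat mice. It rose 2.18-fold, and Spi1 minus Irf8 differed between diets by 0.01, with an exact permutation p of 0.984.

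Neither relative of Spi1 passed the test. Spib, known from B cells and plasmacytoid dendritic cells, had 7.10, 5.86, 6.12, 6.99 and 6.37 in high fat mice, against 8.15, 6.87, 7.86 and 6.93 in low fat mice. Its difference of -0.96 ± 0.34 (SE) did not pass (limma adjusted p = 0.0693), but did without high fat mouse 1 (-1.12). Spic, a factor of red pulp macrophages of the spleen, was at 6.04 (SD 0.07, n = 5) in the high fat group and 6.09 (SD 0.09, n = 4) in the low fat group, below the median of all genes. Whether values near or below that median lie above background was not determined.

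Among 20 measured of 23 listed myeloid transcription factor genes, 8 rose and 2 fell, with a median difference of 0.16. Irf8, Egr2 (2.64-fold), Runx1 (1.91-fold) and Cebpa had the smallest p of the list. Egr2 is an early response factor found in macrophages, and Runx1 acts early in blood cell formation. Cebpa, a partner of PU.1 that is also a main factor of adipocytes, had a difference of -0.60, at 10.93 (SD 0.09, n = 5) in the high fat group and 11.52 (SD 0.11, n = 4) in the low fat group. Gata6, a factor of resident peritoneal macrophages, was the other member that fell (8.78 in high fat mice and 9.34 in low fat mice). The cells that the Gata6 RNA came from were not determined.

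Adgre1 encodes the adhesion receptor whose antigen is the standard stain for mouse macrophages. It had 11.38, 11.45, 11.81, 10.96 and 11.10 in high fat mice, against 10.22, 9.98, 10.35 and 10.14 in low fat mice. High fat mouse 3 was the highest and the diets were 0.62 apart, with a difference of 1.17 ± 0.15 (SE, limma adjusted p = 0.000597). Adgre4, another receptor of the family, was at 8.27 (SD 0.35, n = 5) in the high fat group and 8.32 (SD 0.23, n = 4) in the low fat group, a difference of -0.04 that did not pass (limma adjusted p = 0.899).

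Cd14 encodes the coreceptor that hands bacterial lipopolysaccharide to the receptor formed by Tlr4 and Ly96. It had 8.61, 8.88, 9.15, 8.34 and 8.38 in high fat mice, against 8.18, 7.93, 8.21 and 7.90 in low fat mice. High fat mice 4 and 5 lay just above the low fat range, by 0.14 at the closest. The difference was 0.61 ± 0.16 (SE, limma adjusted p = 0.0217). The call was lost without high fat mouse 2 (0.56, limma adjusted p = 0.0533), low fat mouse 2 (0.57, 0.0590) or low fat mouse 4 (0.56, 0.0630), and without high fat mice 1 and 2 together (0.57, 0.102).

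The genes around Cd14 were mostly higher. Of 17 measured, 13 rose and 0 were lower (2 lower at an unadjusted p below 0.05), with a median difference of 0.51. With quantile normalization repeated or arrays centred on their medians 10 were higher and 2 lower under each. Ly86, which encodes a secreted protein related to that of Ly96, rose 1.78-fold. Lbp, whose product carries lipopolysaccharide to CD14, rose 2.13-fold, at 12.44 (SD 0.04, n = 5) in the high fat group and 11.34 (SD 0.34, n = 4) in the low fat group. Itgb2, the common chain of leukocyte integrins, rose 2.13-fold, and Tlr2 rose 1.55-fold. Ly96 rose 1.42-fold, with groups that did not overlap. Tlr4 had 8.78, 8.73, 8.82, 8.66 and 8.78 in high fat mice, against 8.52, 8.54, 8.53 and 8.66 in low fat mice. It rose by a small amount (0.19 ± 0.05 SE, limma adjusted p = 0.0173), and did not pass with quantile normalization repeated (0.14), with arrays centred on their medians (0.15) or without high fat mice 1 and 2 (0.19, limma adjusted p = 0.0760).

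Cd68 encodes a heavily glycosylated membrane protein of late endosomes and lysosomes, related to the LAMP proteins. It had 12.78, 12.93, 13.05, 12.52 and 12.59 in high fat mice, against 11.13, 10.73, 11.05 and 10.70 in low fat mice. The gap of 1.40 between the diets was the widest of the 9 genes and exceeded the range within either diet. The difference of 1.87 ± 0.13 (SE, limma adjusted p = 3.60e-05) ranked 45 from the top among all genes. Lamp1, a main glycoprotein of all lysosomes, rose 1.21-fold, and Lamp2, at 11.35 in high fat mice and 11.20 in low fat mice, did not pass (limma adjusted p = 0.0526). Mpeg1 encodes perforin-2, a pore-forming protein that acts on engulfed bacteria. It had 10.82, 10.81, 10.91, 10.38 and 10.29 in high fat mice, against 9.51, 9.35, 9.13 and 8.76 in low fat mice. The diets were 0.78 apart, with a difference of 1.45 ± 0.17 (SE, limma adjusted p = 0.000352).

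The RefSeq promoter windows of the 2 genes with the largest differences are shown with the matches to 3 short motifs in capitals, each from 250 bases before to 50 after the gene's start, 5′ to 3′ on the gene's strand, GRCm38.p6. Cd68 lies at chr11:69666121-69666420 (minus strand) and Mpeg1 at chr19:12460520-12460819 (plus strand).
Cd68: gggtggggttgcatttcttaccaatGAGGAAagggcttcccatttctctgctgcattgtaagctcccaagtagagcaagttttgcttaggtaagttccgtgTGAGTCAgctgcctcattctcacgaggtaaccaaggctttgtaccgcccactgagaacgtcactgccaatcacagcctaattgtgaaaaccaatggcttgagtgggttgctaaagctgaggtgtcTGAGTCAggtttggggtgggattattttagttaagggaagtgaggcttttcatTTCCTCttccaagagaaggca
Mpeg1: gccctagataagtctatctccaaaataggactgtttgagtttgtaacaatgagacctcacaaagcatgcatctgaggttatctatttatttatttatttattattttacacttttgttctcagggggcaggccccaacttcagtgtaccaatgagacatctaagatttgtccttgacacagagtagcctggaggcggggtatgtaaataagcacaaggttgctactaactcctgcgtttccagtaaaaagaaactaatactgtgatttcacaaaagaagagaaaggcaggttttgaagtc
The motifs were GAGGAA and AGGAAGT, purine-rich cores of the kind that PU.1 and other ETS factors bind, and TGACTCA, the AP-1 core. Both strands were searched, and the ETS-type motifs overlap each other by AGGAA. In the Cd68 window GAGGAA begins at position -225 from the start (position 0) and its reverse complement TTCCTC at 29, and TGAGTCA, the reverse complement of the AP-1 core, begins at -149 and -24. The Mpeg1 window has no match, nor has that of Csf1, while that of Aif1, which did not pass the diet test, holds TTCCTC at -7. Among all 32851 windows of this length, 28.3% hold GAGGAA, 9.35% AGGAAGT and 5.20% TGACTCA on either strand. A window was found for 5 of the 9 genes, and those of Adgre1, Csf1r, Cd14 and Spi1 were not used here.

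Lyz2 encodes lysozyme M, an enzyme that cuts bacterial cell walls. It had 12.93, 12.91, 12.90, 12.73 and 12.76 in high fat mice, against 12.75, 12.20, 12.61 and 12.43 in low fat mice. Low fat mouse 1 lay within the high fat range, and the high fat mice were close to each other (SD 0.09, against 0.24 in low fat mice). The difference of 0.35 ± 0.10 (SE) passed narrowly (limma adjusted p = 0.0336). It did not pass without high fat mouse 1 (0.33), 2 (0.33) or 3 (0.34), without low fat mouse 2 (0.25) or 4 (0.33), or without high fat mice 1 and 2 together (0.30). These values are near the top of the scale, whose highest value is 14.22, and saturation of bright probes was not examined.

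Lyz1, the neighbouring lysozyme gene best known from Paneth cells of the gut, did not pass the test. It had 11.60, 10.97, 10.77, 11.63 and 11.58 in high fat mice, against 12.34, 11.10, 12.19 and 11.96 in low fat mice. The groups overlapped, low fat mouse 2 was the lowest low fat mouse, and the difference was -0.59 ± 0.27 (SE, limma adjusted p = 0.165). Without low fat mouse 2 it passed (-0.85, limma adjusted p = 0.0245). Lyz2 minus Lyz1 was 1.54 on average in high fat mice and 0.60 in low fat mice (exact permutation p = 0.0317, adjusted p = 0.0556 over the 7 pairs). The genes are closely related copies, so their probes may share signal. Their promoter windows, at chr10:117282223-117282522 for Lyz2 and chr10:117292819-117293118 for Lyz1 (both minus strand), are shown for comparison.
Lyz2: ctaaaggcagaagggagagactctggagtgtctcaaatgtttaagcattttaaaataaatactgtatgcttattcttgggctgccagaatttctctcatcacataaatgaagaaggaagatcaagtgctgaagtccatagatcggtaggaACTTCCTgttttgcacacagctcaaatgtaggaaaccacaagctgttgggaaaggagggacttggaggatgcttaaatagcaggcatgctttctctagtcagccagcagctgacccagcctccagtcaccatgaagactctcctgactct
Lyz1: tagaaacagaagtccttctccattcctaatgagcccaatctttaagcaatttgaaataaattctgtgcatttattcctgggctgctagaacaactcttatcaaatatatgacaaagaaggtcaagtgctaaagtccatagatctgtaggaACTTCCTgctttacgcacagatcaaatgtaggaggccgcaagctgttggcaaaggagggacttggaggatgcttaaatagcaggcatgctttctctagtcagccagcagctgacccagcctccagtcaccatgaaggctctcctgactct
The windows are identical at 201 of 300 positions without gaps (67.0%), and each holds ACTTCCT, the reverse complement of AGGAAGT, beginning at position -100. No other gene lies between these genes in the RefSeq table.

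Aif1 encodes IBA1, a calcium-binding protein of the actin cytoskeleton used to stain microglia and macrophages. It had 7.48, 7.60, 7.50, 7.16 and 7.24 in high fat mice, against 7.20, 7.24, 6.68 and 7.13 in low fat mice. High fat mouse 4 lay below low fat mice 1 and 2, and low fat mouse 3 was the lowest of all. The difference of 0.34 ± 0.13 (SE, 95% interval 0.05 to 0.62) did not pass (limma adjusted p = 0.0968), nor in any of 19 alternatives. Its values lie near the median of all genes. Of 13 measured relatives of the 9 genes, 3 rose, Lamp1 and the receptor kinase genes Pdgfra (1.62-fold) and Pdgfrb (1.34-fold), which belong to the family of Csf1r and mark mesenchymal cells. The median difference of the 13 relatives was -0.012, and 6 of them had a positive difference.

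The measured differences of the 9 genes were not equal. For each of the 36 pairs the log2 difference between genes within a mouse was compared between diets by a two-sided exact permutation test over 126 assignments, whose smallest p is 0.0159. Of these, 25 pairs passed after adjustment over the 36. The measured difference of Cd68 exceeded that of each of the other 8 genes, from 0.42 more than Mpeg1 to 1.64 more than Csf1 (adjusted p = 0.0238 for each). Adgre1 and Spi1 differed from each other by 0.03 (adjusted p = 0.767), whereas each exceeded Csf1r, by 0.33 and 0.30 (adjusted p = 0.0238 for both). No pair among Cd14, Lyz2, Aif1 and Csf1 passed, the differences lying between 0.01 and 0.39. Without low fat mouse 1 or 4 the smallest possible p is 0.0357, and 0 pairs passed after adjustment (smallest adjusted p = 0.0536), with 24 at an unadjusted p below 0.05 in each case. The smallest possible p is the same without low fat mouse 2 or 3, where 27 and 26 pairs passed after adjustment. Each pair sets different probe sets against each other, and a probe set near saturation or near background can compress a change. Lyz2 and Cd68 were both bright, with means of 12.85 and 12.77 in high fat mice, and Aif1 was near the median of all genes. Pairs with any of these therefore compare measured signals and not amounts of RNA.

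**Figure D3:**
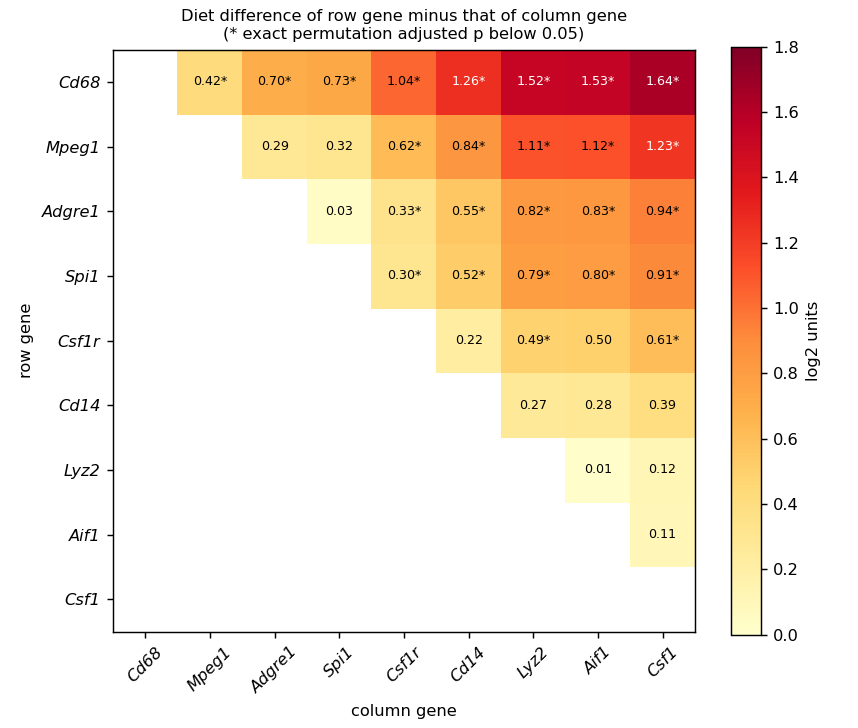
Diet difference of the gene in each row minus that of the gene in each column (log2 units, colour and printed value), genes in order of their diet difference. Asterisks mark an exact permutation adjusted p below 0.05, found in 25 of 36 pairs and in all 8 with Cd68.

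Mice of the same diet differed in the same direction across most of the genes. Among high fat mice, mouse 3 was the highest for 6 of the 9 genes and mouse 4 the lowest for 7. All 7 called genes were above their high fat mean in mice 2 and 3, and all 7 were below it in mice 4 and 5. Among low fat mice, all 7 were above the mean in mouse 1 and all 7 below it in mouse 4. Csf1 did not share this order, since high fat mouse 5 was the highest and high fat mouse 1 the lowest. Correlations of the deviations from the diet means over the 9 mice had a median of 0.84 over the 21 pairs of called genes (0.43 to 0.95). For Csf1 against the other 8 genes the median was -0.03 (-0.43 to 0.14). These correlations describe the same 9 arrays. The part of array quality or of the amount of macrophage RNA in them was not tested.

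**Figure D4:**
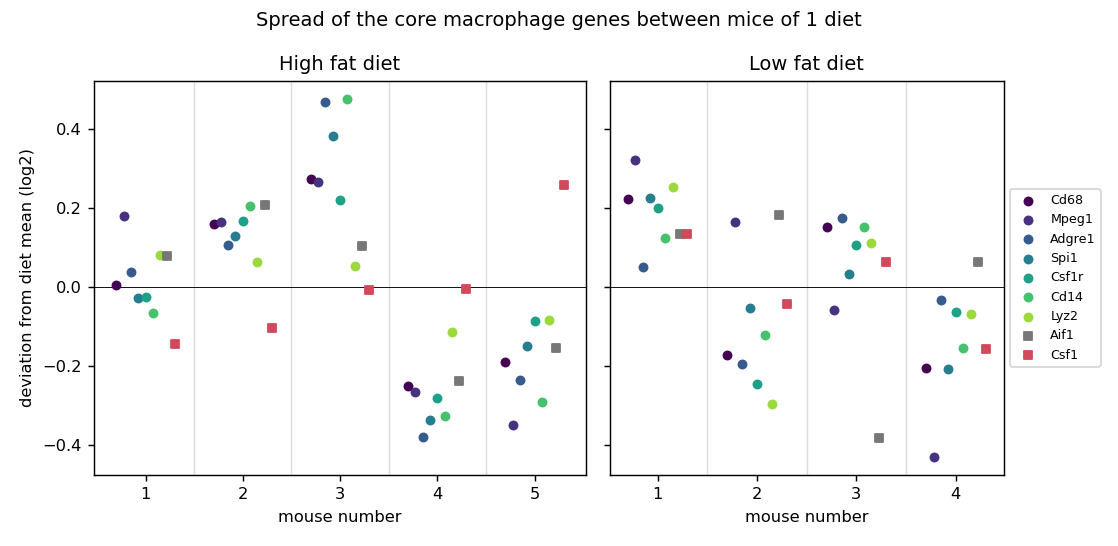
Deviation of each gene from its diet mean (log2, vertical axis) in each mouse (horizontal axis), high fat mice left and low fat mice right. Circles are the 7 called genes and squares Aif1 and Csf1. The circles lie together above 0 in high fat mice 2 and 3 and low fat mouse 1, and below 0 in high fat mice 4 and 5 and low fat mouse 4.

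For each gene the non-member genes most like it were found by Pearson correlation over the 9 mice, given as a description with no p, since the diets form 2 separate groups and the step between them enters every value. Cd68 was most like Lgals3, the galectin-3 gene (r = 0.998), and Tpcn2, a lysosomal channel gene (r = 0.997). Spi1 was most like Frrs1 (0.997) and Sh3bgrl3 (0.997), Adgre1 like Myo1e, an unconventional myosin gene (0.995), and Heatr5a (0.995), and Csf1r like Wdr91 (0.996) and Nckap1l (0.993). Mpeg1 was most like Entpd1, an ectonucleotidase gene (0.995), and Atp8b4 (0.993), Lyz2 like Syk, a kinase gene of immune receptors (0.993), and Il27ra (0.986), and Cd14 like St6galnac4 (0.982) and Sesn1 (0.981). Aif1 was most like BC004004 (0.979) and Gys2 (0.963). Csf1 was most like Nhsl1 (0.979) and Dpt, a dermal matrix protein gene (0.977), and neither passed the diet test (limma adjusted p = 0.0993 and 0.120). With diet means removed, the most alike genes were Heatr5a for Adgre1 (0.977), Nckap1l for Cd68 (0.989), the mast cell protease gene Mcpt4 for Csf1r (0.982), Frrs1 for Spi1 (0.992), Dync1h1 for Mpeg1 (0.982), Laptm5 for Lyz2 (0.991), Plau for Cd14 (0.995), Aurkb for Aif1 (0.969) and Cd55 for Csf1 (0.964).

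Markers of other cells were set beside the 9 genes. Over all genes 12.4% were called higher and 9.13% lower, and a count near these shares does not set a list apart. Of 8 genes shared by leukocytes, 6 rose, among them the tetraspanin gene Cd53 (2.14-fold) and Cd52 (1.73-fold), and the list average was 9.93 to 10.2 in high fat mice and 9.23 to 9.78 in low fat mice. Of 7 monocyte markers 1 rose, the chemokine receptor gene Ccr2 (1.34-fold), and Chil3 was at 5.87 in high fat mice and 6.09 in low fat mice (limma adjusted p = 0.112). The Ccr2 call was lost when any of 6 single mice (high fat mice 1, 2, 4 and 5, low fat mice 2 and 4) was left out (differences 0.35 to 0.44). Of 8 dendritic cell markers Itgax and Batf3 rose and Siglech fell, and the list average was 7.76 to 7.95 in high fat mice and 7.25 to 7.53 in low fat mice. Itgax, which macrophages of obese fat also express, had the largest difference of the list (3.13). Without Itgax the average of the 7 remaining genes was 7.39 to 7.56 in high fat mice and 7.32 to 7.50 in low fat mice, so the diets overlapped. Of 12 neutrophil markers S100a8 rose and Mmp9, Elane and Retnlg fell, while Ly6g, their defining marker, was at 4.79 in high fat mice and 4.79 in low fat mice, near the bottom of the scale. Retnlg was also dim, at 5.25 in high fat mice and 5.45 in low fat mice. S100a9 did not pass, at 5.91 in high fat mice and 5.84 in low fat mice (limma adjusted p = 0.627).

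No T, NK, B or plasma cell marker was called higher by limma, at an adjusted or an unadjusted p below 0.05. Of 11 T and NK cell markers 1 fell, Ncr1 (-0.49), about the share of all genes called lower (9.13%). Cd5 differed by -0.28 (limma adjusted p = 0.0666). Of 9 B and plasma cell markers 2 fell, Jchain (-1.97) and Mzb1 (-0.45), and the list average was 7.99 to 9.01 in high fat mice and 8.91 to 9.79 in low fat mice. The median difference of that list was -0.57. At an unadjusted limma p below 0.05, 6 of its genes were lower, beside 3326 of all 22180 genes. No mast cell marker of 7 passed limma, adjusted or unadjusted, with differences of 0.29 for Tpsb2 and -0.09 for Ms4a2. Adipocyte markers fell in 9 of 11 and rose in 1, with list averages of 12.0 to 12.2 in high fat mice and 12.5 to 12.6 in low fat mice, and Pck1 (-1.82) and Slc2a4 (-1.20) moved most. Fibroblast and progenitor markers rose in 5 of 8, with differences of 2.16 for Lum and 1.25 for Col1a1. Endothelial markers rose in 1 of 9 (Vwf, 0.39) and fell in 2, Kdr (-0.26) and Robo4 (-0.25). Calls of several of these markers were lost when any of several single mice was left out, with differences of the same sign and fewer arrays. Ncr1 was lost without high fat mouse 3 or low fat mouse 1, 2 or 3 (-0.50 to -0.40), and Siglech without high fat mouse 1, 3 or 4 or low fat mouse 1, 3 or 4 (-0.25 to -0.18). Kdr was lost without any 1 of high fat mice 2 to 5 or low fat mice 2 to 4 (-0.28 to -0.20), and Robo4 without any 1 of high fat mice 1, 2, 3 and 5 or low fat mice 2 to 4 (-0.27 to -0.18). Batf3 was lost without high fat mouse 2, 3 or 4 or low fat mouse 1, 2 or 4 (0.20 to 0.26), and Retnlg without high fat mouse 1 or 2 or low fat mouse 2 or 4 (-0.20 to -0.17). No smooth muscle marker of 8 passed limma, and 2 were higher at an unadjusted p below 0.05, Mylk (0.35) and Acta2 (0.35). Both passed without low fat mouse 2 (0.49 for Mylk and 0.52 for Acta2). No skeletal muscle marker of 9 and no mesothelial marker of 7 passed, adjusted or unadjusted, with differences of 0.35 for Myh2, 0.39 for Tnni2, 0.70 for Msln and 0.52 for Bnc1. Of 9 prostate and seminal vesicle markers Msmb differed by -0.08 (limma adjusted p = 0.330) and 1 fell, Trp63 (-0.17), a call lost without high fat mouse 2 or 3 or low fat mouse 2 or 4 (-0.17 to -0.15). The part of these cell types in the differences of the 9 genes was not tested.

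**Figure D5:**
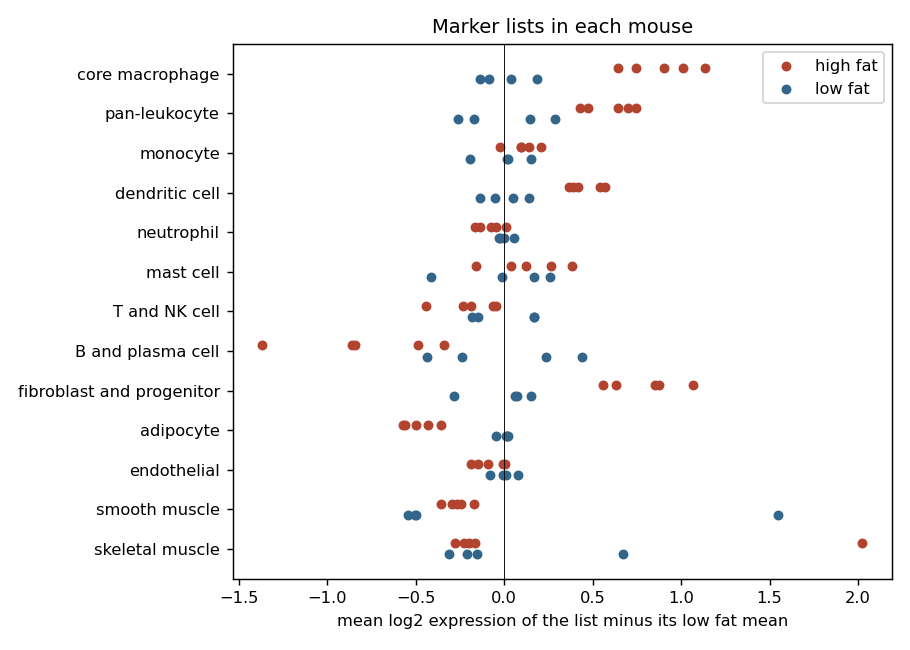
Mean log2 expression of each marker list in each mouse, minus the list's low fat mean (horizontal axis), with high fat mice (red, n = 5) above low fat mice (blue, n = 4). The 9 macrophage genes and the leukocyte and fibroblast lists lie higher in all high fat mice and the adipocyte list lower, while the dendritic cell list lies higher only with Itgax in it. High fat mouse 1 stands out in the skeletal muscle list and low fat mouse 2 in the smooth muscle list.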

How the data were processed

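Total RNA of 9 mice was measured on 1 array each. The deposited table holds log2 expression per probe set, made by the authors with RMA, and limma and R 3.5.0 are also named, per the submitters' processing notes; software and batches for RMA are not given in the sources used. Of 33793 rows, 23521 had 1 gene symbol, 1814 several and 8458 were not listed in the annotation. The probe set with the highest mean was kept per symbol, leaving 22180 genes, with no filter on dim genes.

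Diets were compared with limma 3.58.1 in R 4.3.3 (lmFit, eBayes, Benjamini-Hochberg adjustment over all genes, threshold 0.05), after the script was tested on simulated data. Exact permutation tests used Python 3.11.15 and scipy 1.17.1. Array number limits precision. Promoters came from RefSeq (GRCm38.p6).

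The members and lists were chosen with earlier results of these data known. Named genes were the members, the 4 genes per pathway list and the 2 per marker list with the smallest p, the most correlated genes, and Adgre4, Lyz1, Spib, Spic, Il34, Irf8, Tlr4 and Ly96 whatever their values. Csf2rb, Gata6, Batf3, Elane, Retnlg, Robo4, Ly6g, S100a9, Adipoq, Fabp4, Pbsn, Sbp and the 7 additional within-mouse pairs were chosen after values were seen. Listed genes with no single-symbol probe set were not analysed here. Alternatives were other scalings, filters and probe rules, array weights, covariates, a replicate block and leaving out mice.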

Additional observations from a re-analysis of the deposited data

How the results depend on the processing

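Over 19 alternative fits, Cd68, Mpeg1, Adgre1, Spi1 and Csf1r were called higher in all 19, Cd14 in 15, Lyz2 in 13, and Aif1 and Csf1 in 0. Leaving out each mouse in turn gave 5 to 7 called genes of the 9, and the genes changed by diet numbered 3759 to 4364. An exact permutation test adjusted over all genes called 0 of the 9, since its smallest adjusted p was 0.0765. Unadjusted, 8 of the 9 were below 0.05, as were 6762 of the 22180 genes tested. Repeated quantile normalization gave 2320 genes higher and 2771 lower, and median centring 2227 and 3056, against 2742 and 2026 in the deposited scaling, while 7 of the 9 stayed higher under both.

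Higher relatives numbered 5 with array weights and 3 to 5 on leaving out single mice, and lower ones 0 to 1. The lower gene of the colony stimulating factor list was lost (0 lower) without high fat mice 1 and 2, and single mice gave 0 to 1. In the CD14 and TLR4 list, 2 genes were lower under quantile normalization, 2 under median centring and 1 with dim genes left out, with 0 to 1 on leaving out single mice. Called pairs ranged from 0 to 27. Adgre4, never called, ranged from -0.156 to 0.056 on leaving out single mice, with a positive sign without high fat mouse 2 (0.04), high fat mouse 3 (0.056) or low fat mouse 1 (0.05). The causes were not tested. Among 91 named genes, 1563 outcomes kept direction and call, 130 lost the call, 21 gained it and 3 reversed.

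Mouse numbers are shared between diets, but the labels do not say that they pair mice. Correlations of same-numbered deviations were 0.083, 0.126, 0.067 and 0.048, and 2 of 4 numbers had the same number as best partner. All lay within the range for mice of different numbers, -0.1565 to 0.158. With the replicate block, in which high fat mouse 5 has no partner and adds nothing to the difference, 7 of the 9 genes were called, and the genes changed by diet numbered 4036, and the colony stimulating factor list had 0 lower genes.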
